A study of Mus musculus with 185 samples.

Results

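The superior and inferior colliculi, the paired visual and auditory centres on the roof of the midbrain, were examined in mice switched to a high-fat diet (HFD) for 16 h and in mice kept on chow. In the 16 h study, each heading of the count matrix belongs to 1 prefrontal cortex library of a mouse and stands over 5 columns. Columns were therefore assigned to mice by their heading, and the collicular columns were chosen by expression. In each mouse, among columns with at least 1000000 counts, the mean log2(CPM + 1) of Pax7, Tfap2b and Tfap2d was taken (CPM, the count scaled to a library of 1000000). The 2 highest columns were kept where both exceeded the following column by at least 0.5. The rule was met in 6 of 6 chow mice and in 4 of 6 HFD mice (mice 13, 14, 15 and 17), which gave 20 columns, 12 of chow and 8 of HFD, among 185 columns in all and 90 of the 16 h study. The 2 columns of a mouse were added up, and the mouse was the replicate. The 3 genes that chose the columns were left out of every test.

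All mice were C57BL/6J males, 8 weeks old and pair-housed. Chow mice stayed on their standard diet, and HFD mice received the HFD in place of chow from the late afternoon, through the dark phase, until the next morning. Exposure lasted 16 to 16.2 h by the labels, and tissue was collected between 8:26 and 10:33 in chow mice and between 9:08 and 11:10 in HFD mice. A further group, fasted for 16 h, entered the fit only to estimate the spread between mice. Each collicular library came from 1 hemisphere, and both colliculi of a mouse came from the same side. The 10 mice came from 3 cages per diet, in which cage mates shared their food, and p-values measure the spread between mice. Of the HFD mice used, 13 and 14 were cage mates, whereas 15 and 17 came from a different cage each.

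The superior colliculus receives retinal, cortical and other sensory input in layers and drives orienting movements of eyes and head. The inferior colliculus is a relay of ascending auditory pathways, with neurons able to fire at high rates. Neither is a classical feeding centre. Pax7 marks neurons of the superior colliculus, Tfap2b and Tfap2d encode AP-2 transcription factors of the dorsal midbrain, and all of these genes act in the development of the tectum.

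Most of the chosen columns fell into a pair of patterns. In 7 mice, 1 column was high in Pax7 and Tfap2b and the other in Tfap2d. These were chow mice 2, 4 and 5 and the 4 HFD mice used. In HFD mouse 13, for example, 1 column had 63.96 CPM of Pax7, 88.1 of Tfap2b and 6.21 of Tfap2d, and the other had 0.387, 5.87 and 49.2. Chow mice 1, 3 and 6 lacked such a pair. In chow mouse 3 both columns were high in Tfap2d (41.0 and 48.4 CPM), with 6.69 and 2.57 CPM of Pax7. In chow mouse 1 the column lower in Pax7 had 0.427 CPM of Pax7 and 9.18 of Tfap2d. The summed pairs of these chow mice thus differed in makeup from those of HFD mice. Among the columns of chow mice that were not chosen, the highest values were 1.86 CPM for Pax7, 2.89 for Tfap2b and 2.77 for Tfap2d. Genes of the dorsal midbrain that the rule did not use were present too. Slc17a6, which encodes the vesicular glutamate transporter of midbrain excitatory neurons, lay between 286.8 and 652.2 CPM in the 8 HFD columns, but also between 273.8 and 338.1 CPM in columns rich in hypothalamus genes. Gata3, a transcription factor of midbrain inhibitory neurons, lay between 8.85 and 27.6 CPM in the 8 HFD columns and at 0.781 CPM or less in chow columns of at least 1000000 counts that were not chosen. HFD mice 16 and 18 were not used because each had only 1 such column, with 55.0 CPM of Pax7 in mouse 16 and 53.4 CPM of Tfap2d in mouse 18. That column scored 4.87 in mouse 16 and 2.75 in mouse 18, and the next column 0.59 and 0.78. The margin of the rule, of the second column over the third, was 0.0229 and 0.0442. By the labels, the inferior colliculus of mouse 16 and the superior colliculus of mouse 18 had failed the study's principal component check, as had the inferior colliculus of chow mouse 1 and the superior colliculus of chow mouse 6. The columns of a mouse did not always match its labelled regions. Each mouse had 1 hypothalamus library, and 9 of 12 chow and HFD mice had 1 column in which 12 hypothalamus genes summed to 415.4 to 728.2 CPM. Chow mouse 5 and HFD mouse 16 had 2 such columns and HFD mouse 13 had 0, and each of these 3 mice has a library labelled as failing that check (prefrontal cortex, inferior colliculus and hypothalamus, respectively). Whether columns belong to other mice, and so possibly to another diet, than their heading gives was not tested. The smallest margin of the rule among the chow and HFD mice used was 1.13, in chow mouse 6, and the next was 1.90, in HFD mouse 14.

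**Figure D1:**
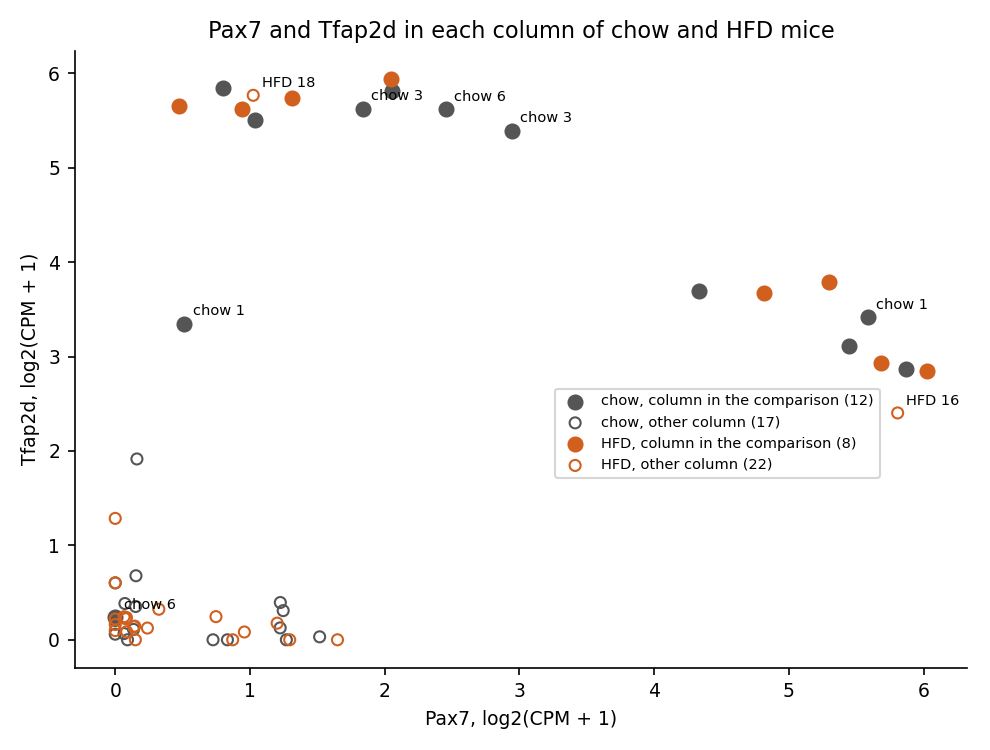
Each point is 1 column of a chow or HFD mouse, with log2(CPM + 1) of Pax7 on the x axis and of Tfap2d on the y axis. Filled points are the 20 columns of the comparison, open points the other columns with at least 1000000 counts. Most chosen columns lie high on 1 axis, whereas 1 column of chow mouse 6 lies near 0 on both and HFD mice 16 and 18 each have 1 open point among the filled ones.

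Columns of 3 chow mice stood apart. In chow mouse 6, 1 of the chosen columns had no count of Pax7, 0.179 CPM of Tfap2d and 41.9 of Tfap2b, together with 2719 CPM of Fat2 and 448.9 of Gabra6, genes of cerebellar granule cells, and 2.27 CPM of Slc17a6. Of the 3 genes of the rule, only Tfap2b was high there. Gata3 and Pou4f2, the latter a transcription factor of superior colliculus neurons, had 0.238 and 0.0596 CPM, whereas the 20 dorsal midbrain transcription factors of a list, of which En2 is also expressed in cerebellum, summed to 1420 CPM, the highest of all columns of chow and HFD mice. A column of chow mouse 1 had 557.1 CPM of Fat2 and a column of chow mouse 3 had 377.9. The 12 cerebellum genes of a marker list summed to 7036, 1779 and 1349 CPM in these 3 columns and to at most 764.3 CPM in the columns of HFD mice. In chow mouse 2, the Pax7-high column held 111.7 CPM of Tph2 and 85.6 of Slc6a4, genes of serotonin neurons of the neighbouring raphe. Values that moved by over 1.5 times without chow mice 1, 3 and 6 are given with and without them for the leading genes, the plot of list medians shows every list both ways, and the part of neighbouring tissue in single genes was not tested. In summed bulk tissue, fewer cells of a type and less RNA per cell cannot be told apart. The summed pairs had 30598927 to 45238904 counts in chow mice and 24032446 to 34754677 in HFD mice. Raw counts were summed, so the deeper column of a pair weighed more. Its share ran from 50.6% in chow mouse 6 to 74.8% in chow mouse 1. Outside chow mice 1, 3 and 6, the deeper column was high in Tfap2d in HFD mouse 13 (64.5%). In the remaining mice it was the Pax7-high column. The mix of the columns thus varied between mice.

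**Figure D2:**
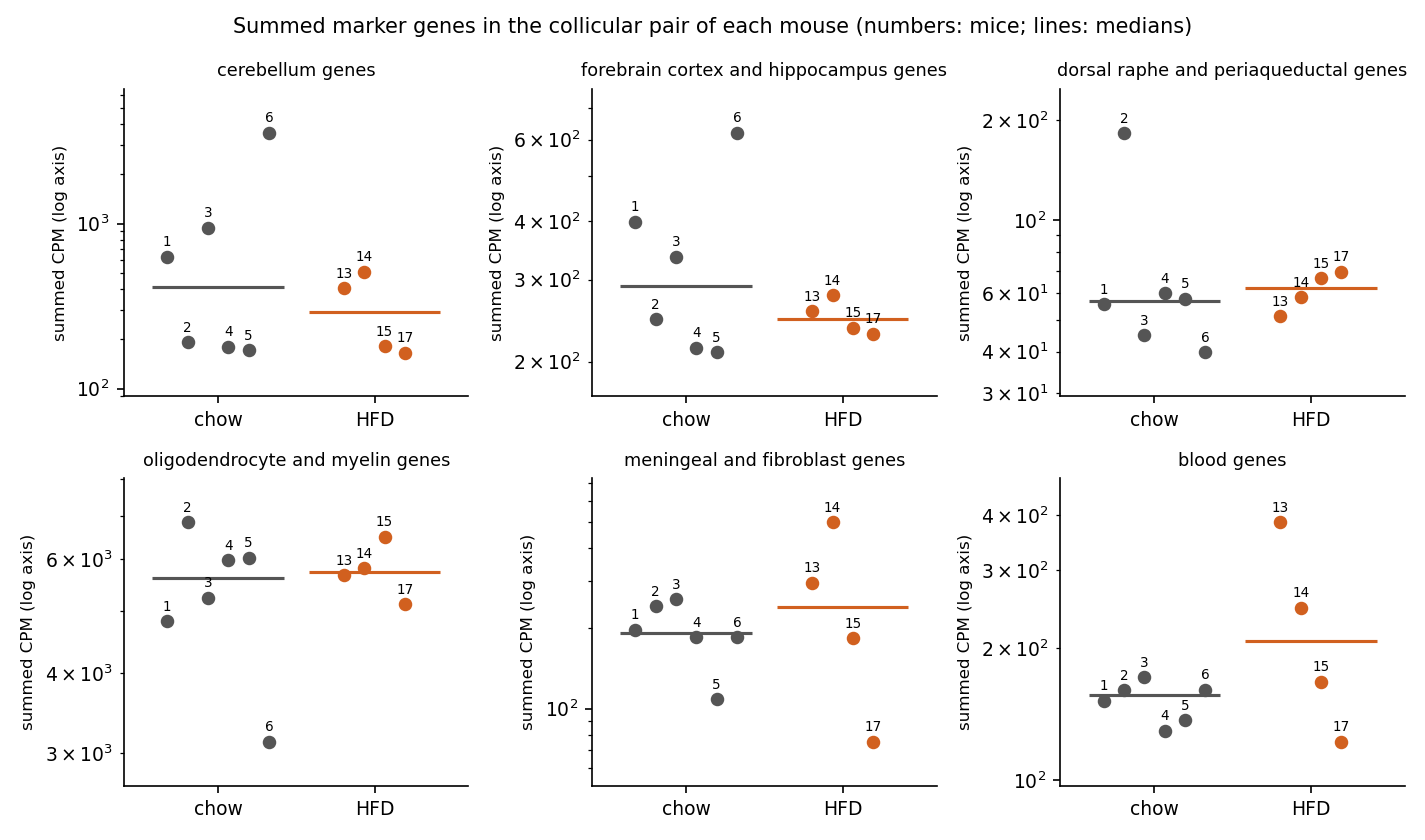
Summed CPM of 6 marker lists in the collicular pair of each mouse, on log axes, with chow mice in grey and HFD mice in orange; numbers are mice and lines are medians. Chow mice 6, 3 and 1 carry the most cerebellum genes, chow mouse 2 the most raphe genes, and HFD mice 13 and 14 the most blood genes.

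The first comparison asked which genes differ in the colliculi after 16 h of HFD. Of 26255 genes tested with edgeR's quasi-likelihood test, 0 passed an adjusted p of 0.05 (0% called). The lowest adjusted p was 0.8459. At an unadjusted p under 0.05 there were 1396 genes, 5.32% of those tested, with 574 higher and 822 lower on HFD. That count was 2098 without chow mouse 2, 922 without HFD mouse 14, 916 without HFD mouse 15 and 924 without chow mice 1, 3 and 6. DESeq2 called 0 genes too, with a lowest adjusted p of 0.119. Values of the 4 HFD mice and the 6 chow mice did not overlap for 178 genes, 0.678% of those tested, of which 90 were higher and 88 lower on HFD. With groups this small some genes separate by chance, and how many would do so was not computed. Over all genes the median log2 fold change was 0.00084, and 50.2% lay above 0. Protein-coding genes alone had a median of 0.027 with 59.7% above 0, and 656 of 15844 had an unadjusted p under 0.05.

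The intervals show which sizes of difference these mice leave possible. For the 17025 genes whose mean log2 CPM reached 1, the 95% interval of the log2 fold change reached a median of 0.213 to either side, a factor of 1.16. For 95.9% of these genes the whole interval lay within a 2-fold change, and for 85.2% within a 1.5-fold change. These are unadjusted intervals of single genes, whereas a call needed an adjusted p, so differences within these limits could go uncalled. Plac9, for example, had an interval of 0.27 to 0.70 and was not called. Smaller differences, and differences of genes with few counts, could not be detected with 4 and 6 mice. The intervals include the pairs of chow mice 1, 3 and 6, which hold cerebellum genes.

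The genes named next had no overlap between diets and the lowest unadjusted p in each direction, and none passed the adjusted test (adjusted p = 0.8459 for each, edgeR's quasi-likelihood test). They were chosen by their values, so the lack of overlap is a description. Among 12 genes with higher values on HFD, Plac9, which encodes a small secreted protein, had 6.23, 6.29, 6.07 and 6.13 CPM in HFD mice 13, 14, 15 and 17, against 3.57 to 5.18 CPM (median 4.38) in chow mice. The HFD mice lay close together, and the log2 fold change was 0.49 ± 0.10 (SE). Pold2, a subunit of DNA polymerase delta, had 12.6, 13.7, 13.0 and 12.2 CPM on HFD and 10.4 to 11.7 CPM (median 10.7) on chow. Osmr, the receptor subunit for oncostatin M and a component of cytokine signalling in astrocytes, had 9.91, 7.87, 6.31 and 6.84 CPM on HFD and 5.19 to 6.12 CPM (median 5.64) on chow. The spread of Osmr was wider on HFD than on chow, and mouse 13 was the highest. Log2 fold changes were 0.25 ± 0.06 for Pold2 and 0.45 ± 0.12 for Osmr.

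Tgif1, a transcriptional repressor that restrains TGF-beta signalling, had 2.42, 2.62, 2.57 and 2.81 CPM on HFD and 1.55 to 2.14 CPM (median 1.83) on chow, a log2 fold change of 0.49 ± 0.15. Prdx6, a peroxiredoxin abundant in astrocytes, had 156.5, 169.1, 159.7 and 154.2 CPM on HFD and 109.1 to 149.9 CPM (median 141.4) on chow, with 0.22 ± 0.07. Rfx4, a transcription factor of the neural tube and of glia, had 28.9, 30.0, 31.5 and 32.5 CPM on HFD and 23.7 to 28.7 CPM on chow, with 0.21 ± 0.07. The lowest HFD mouse lay close to the highest chow mouse in Prdx6 and Rfx4 and farther from it in Tgif1. The other members on this side were Ascc1 (0.27), Fam151b (0.30), Ndufc1 (0.23), a subunit of respiratory complex I, Stmp1 (0.21), which encodes a small mitochondrial protein, Ivd (0.13), which acts in leucine breakdown, and Rack1 (0.14), a scaffold protein of the ribosome. Without chow mice 1, 3 and 6 the log2 fold changes of Prdx6 and Rfx4 were 0.11 each, and that of Plac9 was 0.34.

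Among 12 genes with lower values on HFD, Tspan17, a tetraspanin, had 20.1, 19.3, 21.1 and 20.4 CPM on HFD and 21.3 to 26.0 CPM (median 23.1) on chow, a log2 fold change of -0.21 ± 0.06. Fastkd5, which acts in the processing of mitochondrial RNA, had 3.15, 3.96, 3.84 and 3.41 CPM on HFD and 4.11 to 4.99 CPM (median 4.39) on chow, with -0.31 ± 0.11. Cacna2d3, an auxiliary subunit of calcium channels, had 42.0, 42.3, 42.6 and 37.9 CPM on HFD and 43.4 to 62.8 CPM (median 47.95) on chow, with -0.28 ± 0.11. Chow mouse 1 was the highest for Cacna2d3, and its log2 fold change was -0.15 without chow mice 1, 3 and 6. Srcin1, an inhibitor of Src kinase at synapses, had 305.5, 312.8, 307.2 and 304.8 CPM on HFD and 323.7 to 481.3 CPM on chow, where mouse 6 was far above the rest. Its log2 fold change was -0.23 ± 0.09 in all mice and -0.088 without chow mice 1, 3 and 6. The remaining members were the antisense transcripts Alkbh3os1 (-0.44) and Csmd2os (-0.35), Ccnk (-0.13), Zfp7 (-0.19), Brd9 (-0.076), Slc43a2 (-0.18), Dnajb5 (-0.15) and Wdr81 (-0.067). Slc43a2 had -0.077, Ccnk -0.059 and Dnajb5 -0.089 without chow mice 1, 3 and 6. Reads of antisense genes cannot be told apart from those of their partner unless counting used strand, which is not given in the sources used here.

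**Figure D3:**
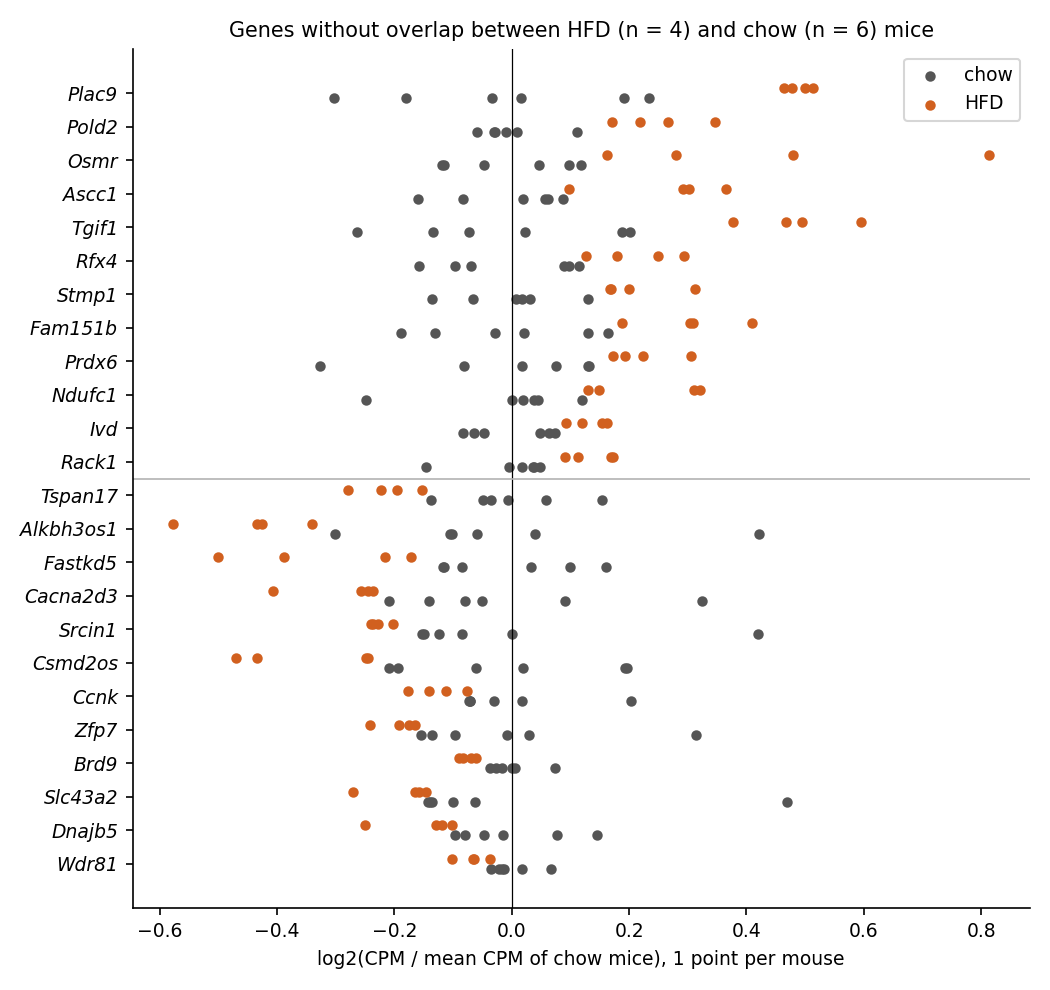
Log2 of CPM over the mean CPM of chow mice for 24 genes without overlap between diets, with 1 point per mouse (6 chow in grey, 4 HFD in orange); the line parts the 12 higher from the 12 lower genes. Osmr spreads widely among HFD mice, and Srcin1 and Slc43a2 each have 1 chow mouse far to the right, mouse 6.

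Genes of the endoplasmic reticulum (ER), which fold secreted and membrane proteins or respond to unfolded ones, shared a direction. Of 18 measured genes 0 passed the adjusted test, all 18 had a log2 fold change above 0, and the median was 0.20 (range 0.11 to 0.49). Beside this, the median was 0.00084 over all genes and 0.027 over protein-coding genes, of which 59.7% lay above 0. At an unadjusted p under 0.05 there were 8 of 18, 44.4%, beside 5.32% of all genes. These genes are known to be regulated together, so their number is not a number of independent observations. Many of their promoters hold the ER stress response element, the letters CCAAT, 9 bases and CCACG, read by ATF6 and its partners during the unfolded protein response. The 250 bases before the start of the RefSeq gene model were searched on either strand (GRCm38.p6, while the counts use GRCm39). The element was found in 7 of the 16 list members in the table. Over the whole table it was found in 35 of 27025 genes, and in 0.113% of 32851 promoters. Since the element is known from such genes, its share in the list is not a result of these data. Calr, Canx and Pdia6, which also hold it, had an unadjusted p above 0.05. The promoters of the 4 genes with the element and an unadjusted p under 0.05 are shown, so that the shared letters can be compared; capitals mark both ends of the element, or their reverse complement.
Dnajc3 (chr14:118937682-118937931, plus strand): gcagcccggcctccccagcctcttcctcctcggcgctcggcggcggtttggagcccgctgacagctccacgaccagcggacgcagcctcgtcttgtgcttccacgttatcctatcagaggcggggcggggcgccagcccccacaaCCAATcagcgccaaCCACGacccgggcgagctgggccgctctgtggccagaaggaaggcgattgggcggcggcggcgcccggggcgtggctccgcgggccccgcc
Creld2 (chr15:88819396-88819645, plus strand): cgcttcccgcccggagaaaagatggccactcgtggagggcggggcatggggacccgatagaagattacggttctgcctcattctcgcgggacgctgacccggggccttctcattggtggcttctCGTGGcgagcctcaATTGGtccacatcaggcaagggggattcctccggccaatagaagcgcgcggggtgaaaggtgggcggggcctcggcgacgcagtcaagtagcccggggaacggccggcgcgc
Hsp90b1 (chr10:86705445-86705694, minus strand): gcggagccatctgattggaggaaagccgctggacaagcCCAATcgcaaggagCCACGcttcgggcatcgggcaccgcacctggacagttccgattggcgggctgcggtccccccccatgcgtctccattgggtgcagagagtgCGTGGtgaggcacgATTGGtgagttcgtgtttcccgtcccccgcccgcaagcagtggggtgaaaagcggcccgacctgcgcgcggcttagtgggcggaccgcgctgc
Hspa5 (chr2:34771840-34772089, plus strand): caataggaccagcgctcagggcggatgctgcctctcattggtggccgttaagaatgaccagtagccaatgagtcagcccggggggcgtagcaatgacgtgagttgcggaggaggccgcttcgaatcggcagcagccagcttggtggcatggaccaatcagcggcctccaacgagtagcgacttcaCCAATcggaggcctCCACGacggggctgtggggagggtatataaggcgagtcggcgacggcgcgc
The element reads forward in Dnajc3 and Hspa5, as its reverse complement in Creld2, and once each way in Hsp90b1, which holds 2 matches. Pdia3, Pdia4, Xbp1 and Atf4, which also had an unadjusted p under 0.05, do not hold these letters in the window, and nothing about a factor follows from a match or from its absence.

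Hspa5, the main chaperone of the ER (BiP), had 226.9, 252.2, 219.9 and 195.5 CPM in HFD mice 13, 14, 15 and 17 and 124.1 to 233.4 CPM (median 183.1) in chow mice. The groups overlapped, and the log2 fold change was 0.33 ± 0.15. Dnajc3, a co-chaperone of BiP that also restrains the kinase PERK, had 84.1, 86.7, 82.8 and 79.4 CPM on HFD and 66.1 to 83.7 CPM (median 71.3) on chow, with 0.20 ± 0.06. Pdia3, an oxidoreductase of glycoprotein folding, had 127.8, 137.9, 138.5 and 117.3 CPM on HFD and 92.1 to 123.1 CPM (median 112.6) on chow, with 0.24 ± 0.08. Xbp1, which encodes a transcription factor of the unfolded protein response, had 72.5, 76.3, 65.8 and 67.4 CPM on HFD and 50.97 to 67.8 CPM (median 59.2) on chow, with 0.26 ± 0.09. For Dnajc3, Pdia3 and Xbp1, chow mouse 2 or 3 reached into the range of HFD mice. The other members under this p were Atf4 (0.19), a transcription factor of the integrated stress response, and the folding genes Pdia4 (0.31), Creld2 (0.27) and Hsp90b1 (0.20). Sdf2l1 had the largest log2 fold change (0.49, unadjusted p = 0.054) and 2.55 to 7.601 CPM among chow mice.

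The level of ER genes also went with the side of the brain. Relative to the mean of chow mice on the log2 scale, the mean over the 18 genes was 0.036, 0.23 and 0.14 in chow mice 1, 2 and 3, whose libraries came from the left hemisphere, and -0.046, -0.11 and -0.25 in chow mice 4, 5 and 6, from the right. In HFD mice it was 0.24, 0.34 and 0.26 in the left-sided mice 13, 14 and 15 and 0.099 in the right-sided mouse 17. Since mice 16 and 18 were both right-sided, 3 of 4 HFD mice but 3 of 6 chow mice were left-sided. With hemisphere as a term, 18 of 18 genes stayed above 0, with a median of 0.16 and 8 at an unadjusted p under 0.05. Among left-sided mice alone, 3 against 3, 16 of 18 lay above 0 with a median of 0.12 and 3 at that p, and the right side had only 1 HFD mouse. Left-sided mice were also collected earlier in the morning, and with the round of cages as a term the median was 0.19, with 11 genes at that p. Without chow mice 1, 3 and 6 the median was 0.19, with 18 of 18 above 0. Of the chow mice in that set only mouse 2 was left-sided, so the sides were matched less well than in all mice. In the Pax7-high columns alone (4 chow and 5 HFD mice, mouse 16 included) it was 0.18 with 1 gene at that p, and in the Tfap2d-high columns alone (5 and 5 mice, mouse 18 included) 0.20 with 11, again with 18 of 18 above 0 in both.

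Immediate early genes, which neurons transcribe within minutes of activity, lay mostly below 0. Of 17 measured genes 0 passed the adjusted test, 16 lay below 0, and the median log2 fold change was -0.35. Nr4a3, a nuclear receptor induced by activity, had 6.51, 7.06, 5.83 and 6.59 CPM on HFD and 6.72 to 17.5 CPM (median 10.0) on chow, with -0.86 ± 0.25 (unadjusted p = 0.0032). Chow mice 1 and 6, whose pairs hold cerebellar genes, were the highest for Nr4a3, with 17.5 and 17.2 CPM. Its log2 fold change was -0.43 without chow mice 1, 3 and 6. Nr4a2 had 2.13, 3.37, 1.20 and 0.966 CPM on HFD and 0.914 to 24.4 CPM on chow, again with mice 6 and 1 on top. Its log2 fold change of -1.98 ± 0.86 went to -0.063 without chow mice 1, 3 and 6. Junb had -0.44 ± 0.27 and Fos, the standard marker of recent activity, -0.48 ± 0.31, both with overlapping groups. The list median was -0.24 without those 3 mice, -0.20 in the Tfap2d-high columns and 0.016 in the Pax7-high columns, where 9 of 17 genes lay above 0.

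**Figure D4:**
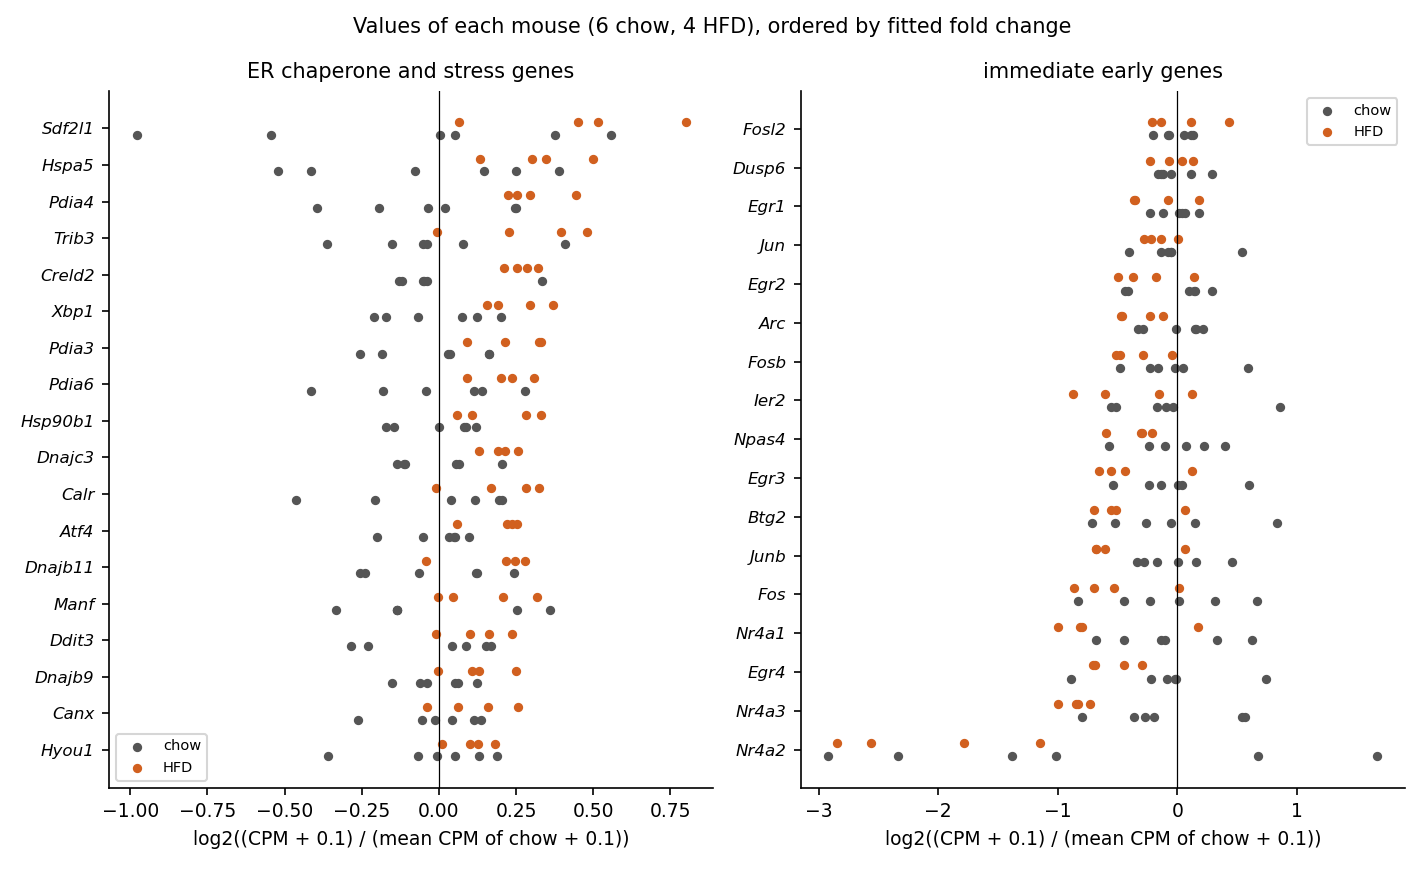
Log2 of (CPM + 0.1) over (mean CPM of chow + 0.1) for 18 ER genes (left) and 17 immediate early genes (right), with 1 point per mouse and genes ordered by fitted fold change. Most HFD points of the ER genes lie right of 0 but overlap the chow points, and Nr4a2 spreads most among the early genes.

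Genes of fatty acid oxidation and ketone body use are among those a fat-rich diet is known to raise in liver and muscle. In the colliculi 0 of 22 passed the adjusted test, 19 lay above 0, the median log2 fold change was 0.12, and 5 had an unadjusted p under 0.05, 22.7% of the list beside 5.32% of all genes. Without chow mice 1, 3 and 6 the median was 0.093, with 2 genes at that p and 18 of 22 above 0. Cd36, a fatty acid transporter of endothelium and phagocytes, had 1.97, 1.82, 1.58 and 2.22 CPM on HFD and 0.603 to 1.26 CPM (median 1.09) on chow, without overlap, with 0.89 ± 0.27. It was a gene of few counts, and its log2 fold change was 0.88 without chow mice 1, 3 and 6, 0.83 in the Pax7-high and 0.34 in the Tfap2d-high columns. Acadm, the dehydrogenase for medium-chain fatty acids, had 27.6, 28.9, 27.3 and 27.3 CPM on HFD and 22.3 to 26.3 CPM (median 24.5) on chow, also without overlap, with 0.17 ± 0.06. Acadl, its long-chain counterpart, had 27.7 to 32.01 CPM on HFD and 23.1 to 29.0 CPM on chow, with 0.17 ± 0.06, and with 0.11 without those 3 mice. Acot1, a thioesterase, and Cpt1a, the gatekeeper of mitochondrial import, were the other members at that p, with 0.39 and 0.19.

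Sterol and fatty acid synthesis genes lay mostly below 0. Of 23 measured genes 0 passed the adjusted test, 18 lay below 0, and the median was -0.016. Lss, lanosterol synthase, had 47.2, 46.1, 50.7 and 53.96 CPM on HFD and 49.3 to 65.6 CPM on chow, with -0.17 ± 0.08. Srebf1, a regulator of lipid synthesis, had 0.10 ± 0.08 and, without chow mice 1, 3 and 6, -0.031. Without chow mice 1, 3 and 6, 22 of 23 lay below 0, with a median of -0.12, and in the Pax7-high columns all 23 did, with -0.12. Without HFD mouse 13 the median turned to 0.017, with 17 of 23 above 0.

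Clock genes were examined because HFD mice were killed later than chow mice of the same round, by 43.5, 32 and 28 minutes on average in rounds 1, 2 and 3 among the 10 mice compared. Of 17 clock genes 0 passed the adjusted test, 6 lay above 0 and the median was -0.036. Per1, a repressor of the clock that also responds to activity and glucocorticoids, had 65.9, 70.1, 67.5 and 70.5 CPM on HFD and 63.1 to 101.1 CPM (median 86.1) on chow, with -0.27 ± 0.13 (unadjusted p = 0.043). Chow mouse 1 lay below all HFD mice, chow mouse 2 beside the highest of them, and the other 4 chow mice above. Per3 had -0.15, Bmal1 -0.17, Hlf 0.15, Nr1d1 -0.12, Dbp -0.11, Npas2 0.11 and Ciart -0.08. The other members, Tef, Cry2, Bhlhe40, Bhlhe41, Per2, Cry1, Nfil3, Clock and Nr1d2, lay between -0.051 (Cry2) and 0.062 (Bhlhe40). Bmal1 had 0.024, Dbp -0.20 and Hlf 0.094 without chow mice 1, 3 and 6. Bmal1 is an activator of this loop and Dbp and Nr1d1 are its outputs, and none of their diet groups separated.

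Glucocorticoid-responsive genes, read out in stress and fasting, had 16 of 18 above 0, a median of 0.12 and 0 that passed. Gjb6, a gap junction gene of astrocytes, led them with 65.4, 84.8, 69.6 and 54.8 CPM on HFD and 40.6 to 62.1 CPM on chow (0.33 ± 0.12), followed by Cebpd (0.33) and Mt1 (0.20), which had 0.21 and 0.053 without chow mice 1, 3 and 6. Cytosolic and mitochondrial heat shock proteins had 13 of 16 above 0 and a median of 0.13. Hspb1, a small heat shock protein, had 6.72, 7.36, 3.46 and 3.35 CPM on HFD and 2.71 to 4.44 CPM on chow (0.57 ± 0.27). HFD mice 13 and 14, which shared a cage, stood above all chow mice, and mice 15 and 17 did not. Hsp90aa1 (0.18, and 0.11 without chow mice 1, 3 and 6) and Dnaja1 (0.094) were next. Of 18 NF-kappaB and cytokine response genes 11 were expressed highly enough to be tested, 6 lay above 0, and after Osmr the lowest p belonged to Socs3, a feedback inhibitor of cytokine receptors. Socs3 had 2.01, 2.06, 1.75 and 1.62 CPM on HFD and 0.783 to 1.58 CPM (median 1.39) on chow, without overlap, with 0.53 ± 0.21. Vcam1 had 0.16 and, without chow mice 1, 3 and 6, -0.00096.

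Genes for insulin signalling and for receptors of appetite hormones had no member under an unadjusted p of 0.05. Of 22 insulin signalling genes 13 lay above 0 with a median of 0.018, led by Igfbp5 (0.26), Tsc2 (-0.08) and Sesn2 (0.17). Of 23 receptors for appetite hormones and peptides 22 were tested, with 15 above 0 and a median of 0.11; Crhr1, a receptor for corticotropin-releasing hormone, had -0.53, Cnr1, the cannabinoid receptor, -0.34, and Adipor1 0.09. Crhr1 had 0.0097 and Cnr1 0.13 without chow mice 1, 3 and 6, and the median of the receptors was then -0.0032. In both lists 0 genes passed the adjusted test. Of 13 genes of the mitochondrial genome 7 were tested, and all lay above 0 with a median of 0.13, led by mt-Nd5 (0.16), mt-Nd4 (0.15) and mt-Co1 (0.12). In the Pax7-high columns all 7 lay below 0, with a median of -0.04.

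**Figure D5:**
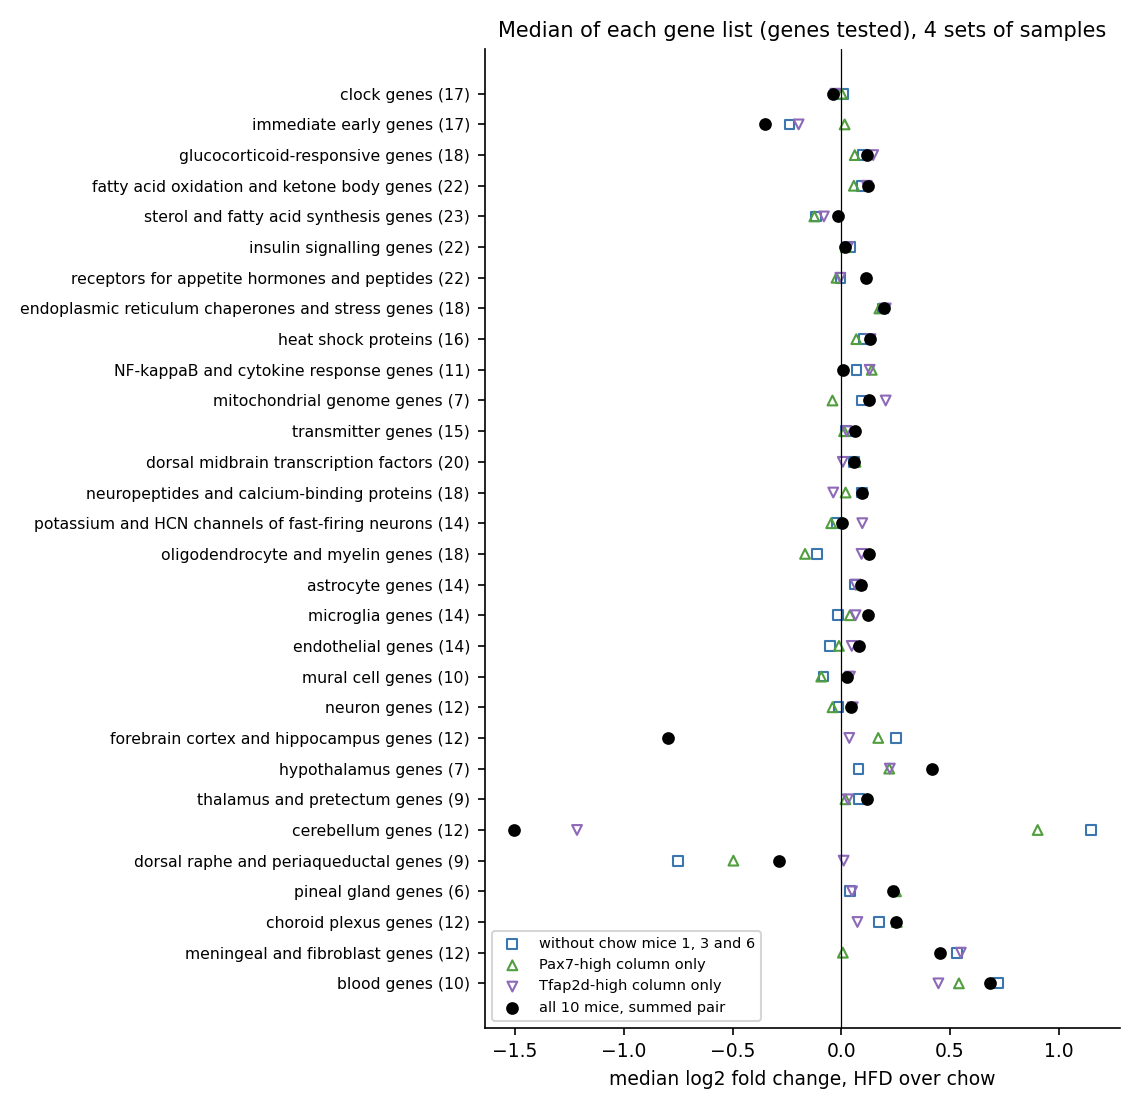
Median log2 fold change (HFD over chow, x axis) of each gene list, with the number of genes tested in brackets, in all 10 mice (black) and in 3 other sets of samples. The ER median stays near 0.2 in all 4 sets, whereas the cerebellum median moves from -1.51 in all mice to 1.15 without chow mice 1, 3 and 6. In each set a larger part of HFD than of chow mice was left-sided. Left-sided mice alone, not plotted, had an ER median of 0.12.

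Genes that mark the neurons of the colliculi did not pass the test in any list. Of 20 dorsal midbrain transcription factors 11 lay above 0, with a median of 0.06. Barhl2 (-0.76), En2 (-0.55) and Gata2 (0.21) had the lowest p, and chow mouse 6 was the highest for Barhl2 and En2, with 27.4 and 88.02 CPM. Barhl2 had -0.087, En2 0.27 and Gata2 0.055 without chow mice 1, 3 and 6. Of 15 transmitter genes Slc17a7, the glutamate transporter of cortical and cerebellar granule neurons, had -2.25 ± 1.05, with 240.9 and 230.8 CPM in chow mice 1 and 6 and at most 48.8 in the other chow and HFD mice. It had 0.30 without chow mice 1, 3 and 6. Slc32a1, the vesicular transporter of inhibitory neurons, had 0.18, and 0.026 without those 3 mice. Of 18 neuropeptides and calcium-binding proteins, Cbln1 (-1.78), Calb1 (-0.87) and Vip (0.36) had the lowest p, and Cbln1 and Calb1, which are abundant in cerebellum, had 0.97 and 0.50 without those 3 mice. The 14 potassium and HCN channel genes of fast-firing neurons were split, 7 above and 7 below 0, with Kcnt1 at -0.26, Kcnc2 at 0.16 and Kcnc1 at -0.14, and at -0.12, 0.048 and 0.0017 without those 3 mice.

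Glial and vascular genes lay mostly above 0, and 0 passed the adjusted test. All 18 oligodendrocyte and myelin genes lay above 0 with a median of 0.13, led by Olig2 (0.24), Ermn (0.22) and Pdgfra (0.13), but without chow mice 1, 3 and 6 only 2 of 18 did, with a median of -0.11. The summed level of these genes was 3128 CPM in chow mouse 6 and 4815 to 6856 CPM in the other chow mice, against 5114 to 6505 CPM on HFD. Of 14 astrocyte genes 12 lay above 0 with a median of 0.092, and 3 had an unadjusted p under 0.05, 21.4% beside 5.32% of all genes. Gfap, the intermediate filament of reactive astrocytes, had 293.4, 376.4, 242.8 and 220.0 CPM on HFD and 146.8 to 246.0 CPM (median 198.1) on chow, with 0.52 ± 0.21. Gja1, the main astrocyte connexin, had 285.8, 345.5, 314.8 and 303.6 CPM on HFD and 210.7 to 293.1 CPM on chow, with 0.23 ± 0.09, and Gjb6 was given above. Only HFD mice 13 and 14, which shared a cage, exceeded all chow mice in Gfap. Without chow mice 1, 3 and 6 the log2 fold changes were 0.27 for Gfap, 0.15 for Gja1 and 0.24 for Gjb6. Their unadjusted p in edgeR's quasi-likelihood test was then 0.26, 0.080 and 0.068. All 14 microglia genes lay above 0 with a median of 0.13 (Aif1 0.46, C1qb 0.27, Csf1r 0.15), and 6 of 14 did without those mice, with C1qb at 0.090 and Csf1r at 0.031. Endothelial genes (Emcn 0.24, Slc2a1 0.20, Kdr 0.26), mural cell genes (Myh11 -0.30, Acta2 -0.27, Ndufa4l2 0.18) and neuron genes (Rbfox3 -0.28, Thy1 0.14, Map2 0.07) had medians of 0.084, 0.029 and 0.044, and of -0.050, -0.082 and -0.012 without chow mice 1, 3 and 6.

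Among markers of tissue outside the colliculi 0 passed the adjusted test. Cerebellum genes summed to 170.4 to 3544 CPM in chow mice and 165.7 to 510.3 CPM in HFD mice, with a median log2 fold change of -1.51 and 1 of 12 above 0. Neurod1 (-2.25), Crtam (-2.31) and Grm4 (-0.86) had the lowest p. Without chow mice 1, 3 and 6 all 12 lay above 0, with a median of 1.15. Forebrain genes had -0.80 (Neurod6 -2.38, Neurod2 -1.91, Zbtb18 -0.79) and 0.25 without those mice. Raphe genes had -0.29 (Slc6a4 -3.07, Chrna3 0.38, Tph2 -2.36) and 0.23 without chow mouse 2. Cerebellum genes were high in chow mice 6, 3 and 1 (3544, 945.6 and 631.1 CPM) and, less so, in HFD mice 14 and 13, against 170.4 to 191.5 CPM in the other chow mice. Forebrain genes were highest in chow mice 6 and 1, and raphe genes in chow mouse 2.

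Blood and meningeal genes were highest in HFD mice 13 and 14, which shared a cage. All 10 blood genes lay above 0 with a median of 0.68, and 5 had an unadjusted p under 0.05, 50.0% beside 5.32% of all genes. Without HFD mouse 13 the median was 0.32, with 0 at that p. Hba-a1, an alpha globin, had 40.0, 28.5, 17.2 and 10.0 CPM in HFD mice 13, 14, 15 and 17 and 12.7 to 17.1 CPM (median 14.7) in chow mice. HFD mouse 17 was the lowest of all 10. Hbb-bt, a beta globin, had 0.85, and the globin genes are near-identical copies whose reads may be shared. Summed blood genes were 385.9 and 246.6 CPM in HFD mice 13 and 14, 167.5 and 122.3 in mice 15 and 17, and 129.7 to 171.4 CPM in chow mice. Meningeal and fibroblast genes (Igf2 0.60, Col1a1 0.50, Aldh1a2 0.64) had 12 of 12 above 0 and a median of 0.46, which turned to -0.11 without HFD mouse 14. Choroid plexus genes (Folr1 1.05, Kl 0.28, Slc4a5 0.34) had a median of 0.25, pineal genes (Sag 0.61, Pde6b -0.24, Otx2 0.31) 0.24, hypothalamus genes (Agrp 0.19, Avp 0.93, Oxt 0.78) 0.42, and thalamus and pretectum genes (Irx1 0.26, Slitrk6 0.26, Ntng1 0.08) 0.12. Hypothalamus genes summed to at most 8.36 CPM in any mouse of the comparison. The part of blood, meninges and glia in the values of Gfap, Hspb1, Cd36 and Osmr, which were high in mouse 13 or 14 or lie in such cells, was not tested.

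Fold changes also differed in sign by class of transcript. Of 15844 protein-coding genes 59.7% lay above 0, with a median log2 fold change of 0.027. Of 4654 lncRNA genes 39.9% did, with a median of -0.058, and of 2176 unconfirmed transcripts (TEC in the annotation) 28.4%, with -0.11. The direction held in each sample set given here: without chow mice 1, 3 and 6 the medians were 0.018, -0.045 and -0.054, in the Pax7-high columns 0.012, -0.043 and -0.059, and in the Tfap2d-high columns 0.018, -0.061 and -0.089. Unconfirmed transcripts made up 1.63% of CPM in chow mouse 6, 1.20 to 1.37% in the other chow mice and 1.10 to 1.30% in HFD mice. The ranges of the diets overlapped.

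A further comparison asked whether the diet difference in the colliculi differs from that in the other columns of the same mice. With mouse as a block, 0 of 27884 genes passed an adjusted p of 0.05 (0% called, lowest adjusted p = 0.4729), and 2877 genes, 10.3%, had an unadjusted p under 0.05. Without HFD mouse 13, none of whose columns was rich in hypothalamus genes, 1590 genes (5.64%) did, and without chow mice 1, 3 and 6, 1171 (4.18%). Among well-expressed genes with the lowest p, Hepacam, a cell adhesion protein of glia, had 82.4 to 88.3 CPM in the colliculi on HFD and 63.3 to 83.3 on chow, but 57.5 to 66.4 CPM in the other columns on HFD and 65.4 to 71.97 on chow. The difference between the log2 fold changes was 0.32 ± 0.07. Acot11, a thioesterase for acyl-CoA, had 0.35 ± 0.08 and Stmp1 had 0.39 ± 0.09, each above 0 in the colliculi (0.22 and 0.21) and below 0 in the other columns (-0.13 and -0.17). Slc16a10, a transporter of aromatic amino acids, had -0.65 ± 0.16, Ccl21a, a chemokine, -1.10 ± 0.26, and Spata31f1e -0.73 ± 0.17. The last 2 belong to families with near-identical copies, so their counts are uncertain. The tissue makeup of the other columns, which are hypothalamus, hippocampus and prefrontal cortex by the labels, was not the same in all mice: chow mouse 5 had 2 columns rich in hypothalamus genes, HFD mouse 13 had 0, and chow mouse 4 had a column of only 683173 counts. Without HFD mouse 13 the differences were 0.30 for Hepacam, 0.27 for Acot11 and 0.41 for Stmp1.

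RNA concentration of the collicular libraries, a measure the rule did not use, was compared by label in all 12 mice. The mean of the superior and inferior colliculus was 14.3 to 43.3 ng/µl in HFD mice (mean 26.9 ± 9.87, SD, n = 6) and 15.3 to 40.2 ng/µl in chow mice (mean 25.9 ± 10.4, SD, n = 6). The difference of 1.03 ng/µl was smaller than the spread (two-sided exact permutation test, p = 0.857).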

How the data were processed

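Superior and inferior colliculus, hypothalamus, hippocampus and prefrontal cortex of 18 mice (6 per group) were sequenced by the authors after ribosomal RNA depletion. Per the submitters' processing notes, reads were demultiplexed with bcl2fastq (2.20.0) and counted per gene with STAR (2.7.3a) against GRCm39. The strand column used and the annotation release are not given in the sources used here. The deposited matrix holds raw counts for 57010 genes in 185 columns under 37 headings, each over 5 columns. In the 16 h study a heading belongs to a prefrontal cortex library of a mouse. It was taken to give the mouse, and so the diet, of its columns, which was not tested. The region of the columns is not given. The 95 columns of the 24 h study were not used. Symbols (56310 genes) came from GENCODE vM39. No columns were identical.

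The counts of both collicular columns of a mouse were summed. Genes with enough counts (filterByExpr) were fitted in edgeR (4.0.16, R 4.3.3) with TMM scaling and the quasi-likelihood test, with chow, fasted and HFD mice in 1 fit. P-values were adjusted over all genes by the method of Benjamini and Hochberg at 0.05. CPM of single genes per mouse are scaled by TMM, which was computed separately for the comparison with the other columns. CPM of single columns and of summed marker lists are scaled by the total count alone. Fold changes are log2 of HFD over chow. Named genes were the 12 without overlap and with the lowest p in each direction, the 3 with the lowest p in each list, all clock genes, and 6 genes for the difference from other columns; further genes (Fos, Sdf2l1, Acot1, Cpt1a and the other ER genes) were picked after their values were seen. Of the genes the rule named, 3 are not reported here by name. The collicular columns, gene lists and tests were chosen with earlier results of these data known. Alternatives covered normalization (DESeq2 1.42.0, limma 3.58.1), filters, mice left out, cages, hemisphere and single columns. The tests were run on simulated counts without cage effects, neighbouring tissue or a varying mix of columns. That check therefore does not cover these features of the data. Pairs held 24032446 to 45238904 counts. Intervals of single-library values would cover counting error only and are not given.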

Additional observations from a re-analysis of the deposited data

Results flagged for a closer look

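For each named gene and each summed marker list, the highest or lowest mouse of a diet group was compared with the others by the ratio of its gap to the whole range (Dixon's ratio, at the 95% critical value for 6 chow or 4 HFD mice). Chance alone passes the limit in about 1 of 20 groups. Here 44 of 282 groups passed it, 15.6%, and 28 of these singled out chow mouse 6.

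Chow mouse 6 stood apart, by the ratio given in brackets, for Ndufc1 (0.646), Rack1 (0.715), Srcin1 (0.771), Ccnk (0.693), Zfp7 (0.645), Slc43a2 (0.893), Bmal1 (0.629), Cry1 (0.689), Crhr1 (0.749), Hsp90aa1 (0.683), Barhl2 (0.675), En2 (0.672), Cbln1 (0.794), Kcnc1 (0.744), Gja1 (0.646), Csf1r (0.662), Rbfox3 (0.763), Thy1 (0.778), Map2 (0.748), Neurod2 (0.634), Zbtb18 (0.631), Neurod1 (0.826), Crtam (0.804), Grm4 (0.858), the sum of dorsal midbrain transcription factors (0.67), the sum of astrocyte genes (0.691), the sum of microglia genes (0.643), the sum of cerebellum genes (0.77). In that mouse, 1 of the 2 columns holds cerebellum genes and no Pax7. Chow mouse 1 stood apart for Bhlhe41 (0.667), Neurod6 (0.851), and chow mouse 2 for Slc6a4 (0.978), Tph2 (0.964), the sum of dorsal raphe and periaqueductal genes (0.859). Among HFD mice, mouse 17, from the right hemisphere, stood apart for Cacna2d3 (0.868), Slc43a2 (0.854), Hlf (0.854), Kcnc1 (0.852), Ndufa4l2 (0.844), Folr1 (0.919), mouse 14 for Junb (0.916), Acadm (0.836), Vcam1 (0.87), Kl (0.979), and mouse 15 for Dbp (0.839).

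Collicular signal was also present in columns outside the comparison. HFD mouse 16 had 55.0 CPM of Pax7 in 1 column and HFD mouse 18 had 53.4 CPM of Tfap2d in 1 column, against at most 1.86 and 2.77 CPM in the columns of chow mice that were not chosen. In fasted mouse 9 both chosen columns were high in Pax7, and a further column held 43.8 CPM of Tfap2d.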

How the results depend on the processing

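The absence of called genes held under all 27 alternatives of the comparison of HFD with chow and all 15 of the comparison with the other columns, as it did at an adjusted p limit of 0.1. The alternative with a margin of at least 1 in the marker rule left out no mouse and so repeated the main fit. Alternatives that left out mice had less power to call a gene. The alternatives by hemisphere, by column type, with cerebellum genes as a term and without chow mice 1, 3 and 6 were chosen after seeing the data. Genes at an unadjusted p under 0.05 ranged from 547 (Pax7-high columns alone) to 2177 (no filter) in the first and from 1171 (without chow mice 1, 3 and 6) to 3582 (chow and HFD mice alone) in the latter. Of 123 named genes 77 kept their sign under every alternative in which they were tested, among them the 24 leading genes and Dnajc3, Pdia3 and Xbp1. The 24 leading genes were chosen for their lack of overlap, which by itself keeps the sign when mice are left out. Their constant sign is therefore a description. The other 46 of the 123 named genes changed sign, and the cause was not tested. They were, with their log2 fold change, in Pax7-high columns alone Bhlhe41 (-0.016), Bmal1 (0.0022), Calb1 (0.47), Cbln1 (1.19), Cnr1 (0.10), Col1a1 (-0.12), Crhr1 (0.0073), Crtam (1.77), Cry1 (0.10), Cry2 (0.016), En2 (0.28), Ermn (-0.10), Grm4 (0.13), Igf2 (-0.045), Kcnc1 (0.0083), Kcnc2 (-0.042), Map2 (-0.0019), Ndufa4l2 (-0.076), Neurod1 (0.67), Neurod2 (0.30), Nfil3 (0.012), Ntng1 (-0.018), Olig2 (-0.057), Pdgfra (-0.057), Rbfox3 (0.048), Slc17a7 (0.25), Slc4a5 (-0.035), Srebf1 (-0.020), Thy1 (-0.042), Zbtb18 (0.23), mt-Co1 (-0.023), mt-Nd4 (-0.077), mt-Nd5 (-0.013); without chow mice 1, 3 and 6 Bmal1 (0.024), Calb1 (0.50), Cbln1 (0.97), Cnr1 (0.13), Crhr1 (0.0097), Crtam (2.20), Cry1 (0.11), En2 (0.27), Ermn (-0.0034), Grm4 (0.13), Kcnc1 (0.0017), Neurod1 (1.17), Neurod2 (0.57), Nfil3 (0.011), Rbfox3 (0.031), Slc17a7 (0.30), Srebf1 (-0.031), Vcam1 (-0.00096), Zbtb18 (0.25); in left-sided mice alone Acta2 (0.031), Ciart (0.081), Cry1 (0.093), Cry2 (0.0043), Dbp (0.15), Kcnc1 (0.040), Map2 (-0.011), Myh11 (0.091), Nfil3 (0.052), Nr1d1 (0.18), Ntng1 (-0.016), Per2 (0.013); in Tfap2d-high columns alone Bhlhe41 (-0.016), Kcnc1 (0.022), Map2 (-0.0043), Nfil3 (0.15), Nr4a2 (0.035), Tsc2 (0.011); with cerebellum genes as a term Cbln1 (0.099), Crtam (0.37), Cry1 (0.061), Nfil3 (0.035); with no filter Clock (-0.0054), Nr1d2 (-0.0063); with chow and HFD mice alone Clock (-0.0038), Nr1d2 (-0.0048); with equal weight per column Clock (-0.0089), Nfil3 (0.0083); with columns as separate libraries Clock (-0.0088), Tph2 (0.17); with clock time as a term Clock (-0.0066), Nr1d2 (-0.021); with hemisphere as a term Clock (-0.0090), Per2 (0.0040); and with cages as the unit Per2 (0.0015). When single mice were left out in turn, these genes ranged on both sides of 0: Bhlhe41 (-0.029 to 0.085), Clock (-0.027 to 0.024), Col1a1 (-0.040 to 0.79), Cry1 (-0.084 to 0.065), En2 (-0.70 to 0.0019), Nfil3 (-0.10 to 0.029), Nr1d2 (-0.041 to 0.041), Per2 (-0.12 to 0.0061), Slc6a4 (-3.48 to 0.88), Tph2 (-2.79 to 1.09). Of 810 list medians under the alternatives 37 moved by more than the spread between mice, most often that of the hypothalamus genes. With 4 and 6 mice, changes under about 1.16-fold lay within the interval of a typical gene above 1 log2 CPM, and less was detectable among genes of fewer counts. No paired analysis was possible because the diet groups share no replicate numbers; in its place, the round of cages, which chow and HFD cages share by time of day, was a term in 1 alternative (0 called, 1153 genes at an unadjusted p under 0.05).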
